A study of Homo sapiens with 12 samples.

Results

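The hyaluronan matrix genes and small leucine-rich proteoglycans examined here are 10 genes, ITIH5, HAS1, HAS2, HAS3, VCAN, BGN, LUM, PRELP, DCN and ASPN, taken by symbol from a table of 58735 genes. ITIH5 was chosen by its readout, because it moved in opposite ways with the ZZZ3 hairpin in the 2 fusion lines, and the other 9 genes complete the matrix group to which it belongs. That choice used the control libraries of both lines, which also enter every other comparison, so the ITIH5 values are given throughout as a description without a test. The cells were SW872, derived from a human liposarcoma, with stable expression of either TAZ-CAMTA1 (TC) or YAP-TFE3 (YT). Both fusion proteins join a coactivator of TEAD transcription factors to a second transcription regulator. All cells also carried a hairpin RNA, which was non-targeting (shNT), against YEATS2 (shYEATS2) or against ZZZ3 (shZZZ3). Both targets belong to ATAC, a complex that acetylates histones, and the RNA libraries were made to measure how loss of each subunit alters the transcripts of each fusion line. The groups were TC shNT, TC shYEATS2, TC shZZZ3, YT shNT, YT shYEATS2 and YT shZZZ3, with 2 libraries each. The study calls them biological duplicates and describes separate transductions for its sequencing experiments in general. It does not give this for the hairpin libraries in particular, so the p-values measure the spread between these libraries. In the general RNA sequencing of the study, lines containing CAMTA1 were collected before confluence and the others at confluence. The study does not say whether this covers TAZ-CAMTA1, or how the hairpin lines were collected. If the density of the culture differed between TC and YT, it cannot be told apart from the fusion.

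Hyaluronan is a long unsulphated sugar chain that synthases in the plasma membrane, encoded by HAS1, HAS2 and HAS3, extrude into the matrix from nucleotide sugars made in the cytosol. Versican (VCAN) is a large chondroitin sulphate proteoglycan that binds this chain, and heavy chains of the inter-alpha-trypsin inhibitor family, to which ITIH5 belongs, are known for their transfer onto it. Biglycan (BGN), decorin (DCN), asporin (ASPN), lumican (LUM) and PRELP are small leucine-rich proteoglycans, short proteins that bind collagen fibrils and, for biglycan and decorin, carry chondroitin or dermatan sulphate chains. Fibroblasts and other mesenchymal cells are a main source of this matrix.

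The total count per library ranged from 17451893 to 29294805. Of the 10 genes, 7 reached a mean of 5 counts per library and entered the fit, namely ITIH5, HAS2, HAS3, VCAN, BGN, LUM and PRELP. YEATS2 fell with its hairpin in both lines, by 1.54 on the log2 scale in TC and by 1.68 in YT (edgeR adjusted p 0.0138 and 1.04e-04). ZZZ3 fell by 1.51 in YT shZZZ3 (edgeR adjusted p 0.0453), while its difference in TC shZZZ3 was -0.94 and did not pass (edgeR adjusted p 0.45). It stood at 25.6 and 60.4 counts per 1000000 counts of the library (CPM) in TC shNT, against 21.9 and 22.7 CPM in TC shZZZ3. In YT it stood at 71.2 and 49.1 CPM in shNT and at 12.6 and 29.6 CPM in shZZZ3. In YT shYEATS2, both libraries (31.4 and 30.7 CPM) lay below the YT controls for ZZZ3 too, at -0.95, which did not pass (edgeR adjusted p 0.13). All 10 mesenchymal markers fixed for the line (VIM, COL1A1, FN1 and others) were above 3 counts in every library, with summed levels of 8775 to 15395 CPM. Of 10 adipocyte markers, ADIPOQ, CIDEC and LEP stayed at 3 counts or fewer in every library, as did the leukocyte markers PTPRC and CD68, and the summed adipocyte markers ranged from 124 to 346 CPM. The summed markers ranged from 112 to 386 CPM for 8 endothelial genes, from 285 to 912 CPM for 5 epithelial genes and from 1.26 to 4.75 CPM for 5 leukocyte genes. The libraries of TC shNT and of YT shZZZ3 stood further apart from each other than those of the other groups (median absolute deviation of the log2 difference 0.708 and 0.618, against 0.183 to 0.366). Calls of the members and of the pathway genes that were lost without one of them are marked as such.

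The start regions of ITIH5, VCAN, PRELP and HAS3 are shown because ITIH5 and VCAN carry the differences described here, and because PRELP and HAS3 held one of 3 motifs searched in the windows. The windows run from 250 bases before to 50 bases after the RefSeq gene start (GRCh38.p14), read 5′ to 3′ on the strand of the gene, and windows were matched for 7 of the 10 genes. Motif matches are in capitals, the rest in lower case.
ITIH5: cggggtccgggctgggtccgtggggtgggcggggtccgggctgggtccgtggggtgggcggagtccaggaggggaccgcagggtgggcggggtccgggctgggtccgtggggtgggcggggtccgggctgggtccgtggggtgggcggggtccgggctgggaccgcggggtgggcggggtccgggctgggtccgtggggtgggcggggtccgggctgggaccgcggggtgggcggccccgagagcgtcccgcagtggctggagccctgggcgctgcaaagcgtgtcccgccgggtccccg
VCAN: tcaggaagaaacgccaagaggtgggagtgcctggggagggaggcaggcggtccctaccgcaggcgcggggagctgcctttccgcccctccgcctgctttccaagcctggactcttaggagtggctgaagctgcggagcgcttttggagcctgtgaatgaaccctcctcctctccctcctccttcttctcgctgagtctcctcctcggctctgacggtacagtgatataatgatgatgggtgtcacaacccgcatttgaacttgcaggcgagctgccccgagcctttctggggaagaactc
PRELP: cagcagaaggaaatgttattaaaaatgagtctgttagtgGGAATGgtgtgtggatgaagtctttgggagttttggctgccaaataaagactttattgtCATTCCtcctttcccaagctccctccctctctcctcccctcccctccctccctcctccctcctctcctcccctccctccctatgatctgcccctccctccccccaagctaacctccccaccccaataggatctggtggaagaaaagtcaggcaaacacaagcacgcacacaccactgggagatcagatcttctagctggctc
HAS3: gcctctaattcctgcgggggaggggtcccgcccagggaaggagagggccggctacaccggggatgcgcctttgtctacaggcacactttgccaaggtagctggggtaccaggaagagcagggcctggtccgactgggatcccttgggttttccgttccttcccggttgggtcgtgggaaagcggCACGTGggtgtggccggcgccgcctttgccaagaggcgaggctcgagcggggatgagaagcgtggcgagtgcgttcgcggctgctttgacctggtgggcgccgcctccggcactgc
They lie at chr10:7666917-7667216 on the minus strand for ITIH5, chr5:83471494-83471793 on the plus strand for VCAN, chr1:203475556-203475855 on the plus strand for PRELP and chr16:69107290-69107589 on the plus strand for HAS3. The motifs were the TEAD core GGAATG, the E-box CACGTG, which TFE3 and its relatives bind, and the AP-1 motif TGANTCA, each on both strands. The PRELP window held the TEAD core at 2 places, starting at positions -211 and -152 from the gene start, and 14% of 35116 such windows hold at least 1. The HAS3 window held 1 E-box, starting at position -66, against 7.26% of all windows. None of the 3 motifs was found in the windows of ITIH5, VCAN, BGN, HAS1 and ASPN, and the AP-1 motif, present in 7.71% of all windows, was in none of the 7. The ITIH5 window is a GC-rich tandem repeat, with 81.7% G or C and a word of 16 bases that occurs 7 times. The windows of the other 6 genes had 34% to 71.7% G or C, and no word of 16 bases occurred more than 2 times in them.

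Levels of different genes were compared as CPM per kb of exon, by the mean of each group. BGN stood far above the others, at 453 to 977 CPM per kb, above 99.8% of tested genes in each group. It accounted for 99.5% to 99.9% of the summed level per kb of the 5 small leucine-rich proteoglycans in each library. VCAN lay at 1.97 to 29.1 CPM per kb and HAS2 at 1.81 to 11.8. HAS2 was above VCAN in YT shNT (5.92 against 1.97 CPM per kb) and YT shYEATS2 (11.8 against 10.6), and below it in the other groups. PRELP lay at 0.335 to 3.16 CPM per kb, HAS3 at 0.582 to 0.987, LUM at 0.0188 to 0.673 and ITIH5 at 0.0167 to 0.592. Both HAS2 and HAS3 were thus present, and HAS2 made 58% to 95.1% of the summed synthase level per kb. The 3 genes below the test filter were at the limit of detection. HAS1 had 16 counts over the 12 libraries and never more than 3 in one, DCN had 8 counts in 4 libraries and never more than 3, and ASPN had 0 in all 12. At 3 counts or fewer per library, differences of these genes between groups could not be detected at this depth.

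**Figure D1:**
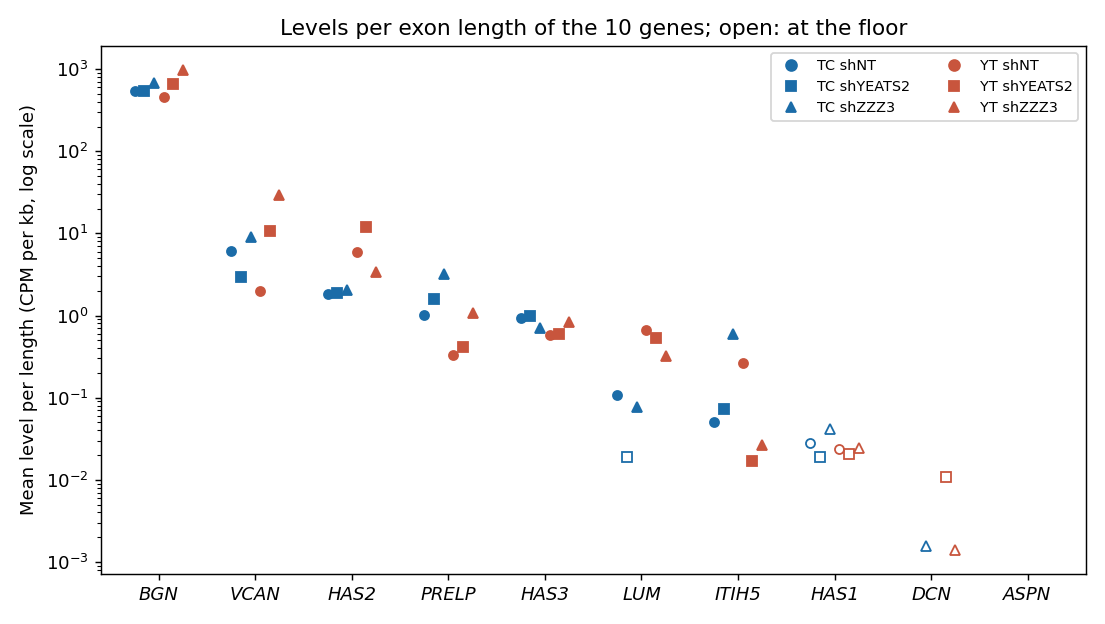
Mean level of each of the 10 genes in each group, in CPM per kb of exon on a log axis, with blue symbols for TC and red for YT, and open symbols where both libraries had 3 counts or fewer. BGN lies at 453 to 977 CPM per kb, above all other genes. Groups with a mean of 0 have no symbol, so ASPN shows none.

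ITIH5 codes for a heavy chain of the inter-alpha-trypsin inhibitor family and is a gene of 14628 exon bases on chromosome 10 (ENSG00000123243, GRCh38, 7559270 to 7666998, minus strand). It was scarce in TC shNT, at 0.763 and 0.717 CPM, and stood at 8.24 and 9.09 CPM in TC shZZZ3. In YT the order was the opposite, with 3.85 CPM in both shNT libraries and 0.437 and 0.338 CPM in shZZZ3. The groups did not overlap in either line. The log2 fold changes were 3.40 (SE 0.313) in TC shZZZ3 and -3.04 (SE 0.34) in YT shZZZ3, a difference between the lines of -6.44 (SE 0.462). These are the values by which the gene was chosen, and no test is attached to them. Without any 1 of the 12 libraries they stayed within 3.33 to 3.47 in TC and -3.16 to -2.91 in YT. The counts behind them were 20 and 15 for the TC controls against 203 and 170 with the hairpin, and 73 and 67 for the YT controls against 12 and 8.

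In YT shYEATS2 ITIH5 stood at 0.333 and 0.155 CPM, 8 and 3 counts, the second of these at the limit of detection. Both libraries lay below the YT controls, with a log2 difference of -3.54 (SE 0.373). In TC shYEATS2 ITIH5 was at 1.23 and 0.904 CPM, a little above the TC controls (log2 0.49, SE 0.336). The YEATS2 differences of the lines were thus -4.03 apart (SE 0.508). The YT controls were above the TC controls by 2.25 (SE 0.316). The choice of the gene favours low TC controls and high YT controls, so no p is attached to these values. In order of its level the groups ran TC shZZZ3, YT shNT, TC shYEATS2, TC shNT, YT shZZZ3 and YT shYEATS2. No neighbours in this order overlapped, though each group has only 2 libraries and the gene was chosen by some of these values. The nearest libraries of YT shZZZ3 and YT shYEATS2 had 8 counts each, at 0.338 and 0.333 CPM. Those of TC shYEATS2 and TC shNT had 18 and 20 counts, so the lower steps of the order are within a few counts.

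The genes beside ITIH5 on chromosome 10 were SFMBT2, a Polycomb-like protein, and ITIH2, a sister heavy chain. ITIH2 had 10 counts in all libraries together and was not tested. SFMBT2 did not pass in any of the 7 comparisons by edgeR, where its log2 differences ran from 0.04 to 0.82 and its adjusted p was lowest in YT shZZZ3 (0.82, adjusted p 0.0718).

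The 5 genes whose log2 levels followed ITIH5 most closely over the 12 libraries, among 13258 genes with a mean of 50 counts or more, were SLC1A6 (Pearson r 0.932), BMP2 (0.926), PIM1 (0.919), MFSD4B (0.912) and GFPT2 (0.912). The libraries of a group are not independent points, and these genes were picked for the likeness, so no p is given. SLC1A6, a glutamate transporter, changed by 2.04 in TC shZZZ3 and by -1.18 in YT shZZZ3 on the log2 scale. BMP2, a secreted growth factor, stood at 4.35 and 4.06 CPM in TC shNT and at 11.8 and 11.2 CPM in TC shZZZ3, and at 6.92 and 7.3 CPM in YT shNT and 3.93 and 4.4 CPM in YT shZZZ3. PIM1, a serine/threonine kinase, showed log2 values of 0.92 and -1.15 in the same comparisons. MFSD4B, a transporter of the major facilitator family, had the same signs over a much narrower range, 0.28 and -0.33. GFPT2 makes a precursor of hyaluronan and is described with its pathway.

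**Figure D2:**
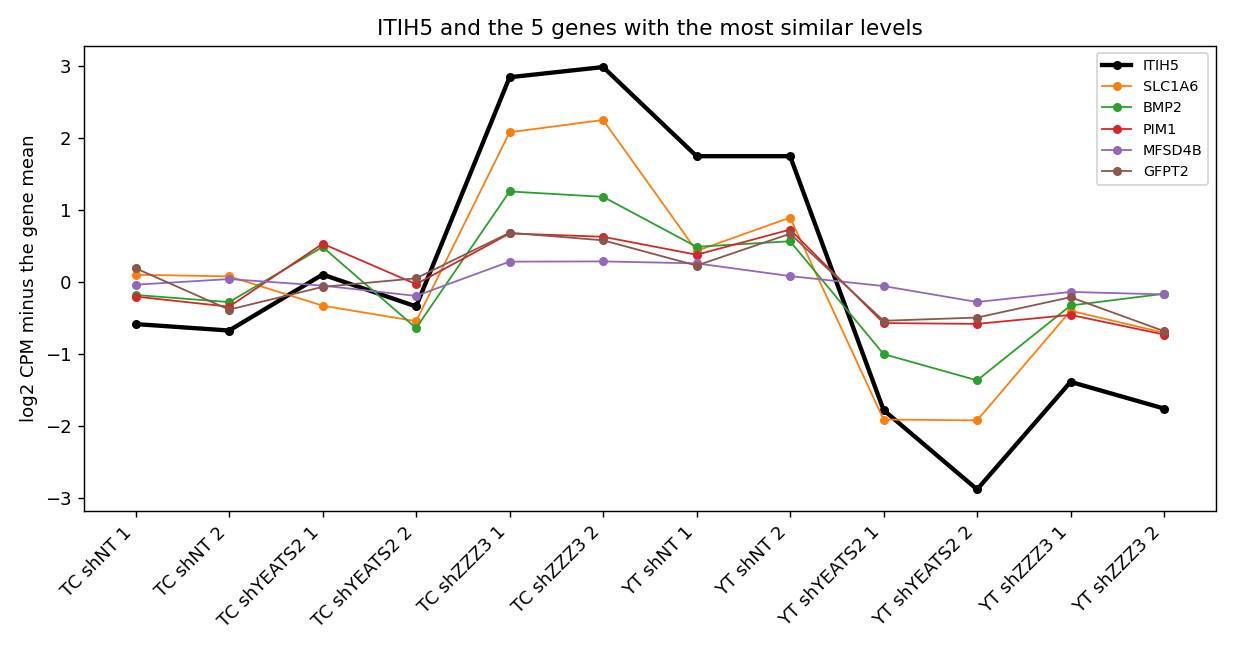
Log2 CPM of ITIH5 and the 5 genes most like it in each of the 12 libraries, less the mean of each gene. ITIH5 (thick black line) is highest in the TC shZZZ3 libraries (8.24 and 9.09 CPM) and lowest in the YT shYEATS2 libraries (0.333 and 0.155 CPM), and the other 5 genes span narrower ranges, SLC1A6 from 0.619 to 11.2 CPM and GFPT2 from 8.29 to 21.4 CPM.

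Calls were counted over the 9 members other than ITIH5, of which 6 were tested. None was called in TC shYEATS2, where 0.0434% of the 18415 genes tested were called at an adjusted p under 0.05, and none in TC shZZZ3, against 1.53% of all genes. DESeq2 also called 0 members in both. At an unadjusted p under 0.05 by edgeR, 1 member passed in each, VCAN (-1.06) in TC shYEATS2 and PRELP (1.61) in TC shZZZ3, where 5.03% and 10.8% of all genes passed. In YT shYEATS2 2 of the 9 were called, HAS2 and VCAN, both higher, against 20.7% of all genes. In YT shZZZ3 2 were called, VCAN and BGN, both higher, against 10% of all genes. Between the control lines 2 were called, HAS2 higher and VCAN lower in YT shNT, against 9.23%. The YEATS2 effect differed between the lines for VCAN alone, against 9.37%, and so did the ZZZ3 effect, against 4.32%. Counts of 1 or 2 among 6 tested genes are too few to set the members apart from all genes. The comparisons within a line share their shNT libraries, and those between lines share the same libraries again.

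**Figure D3:**
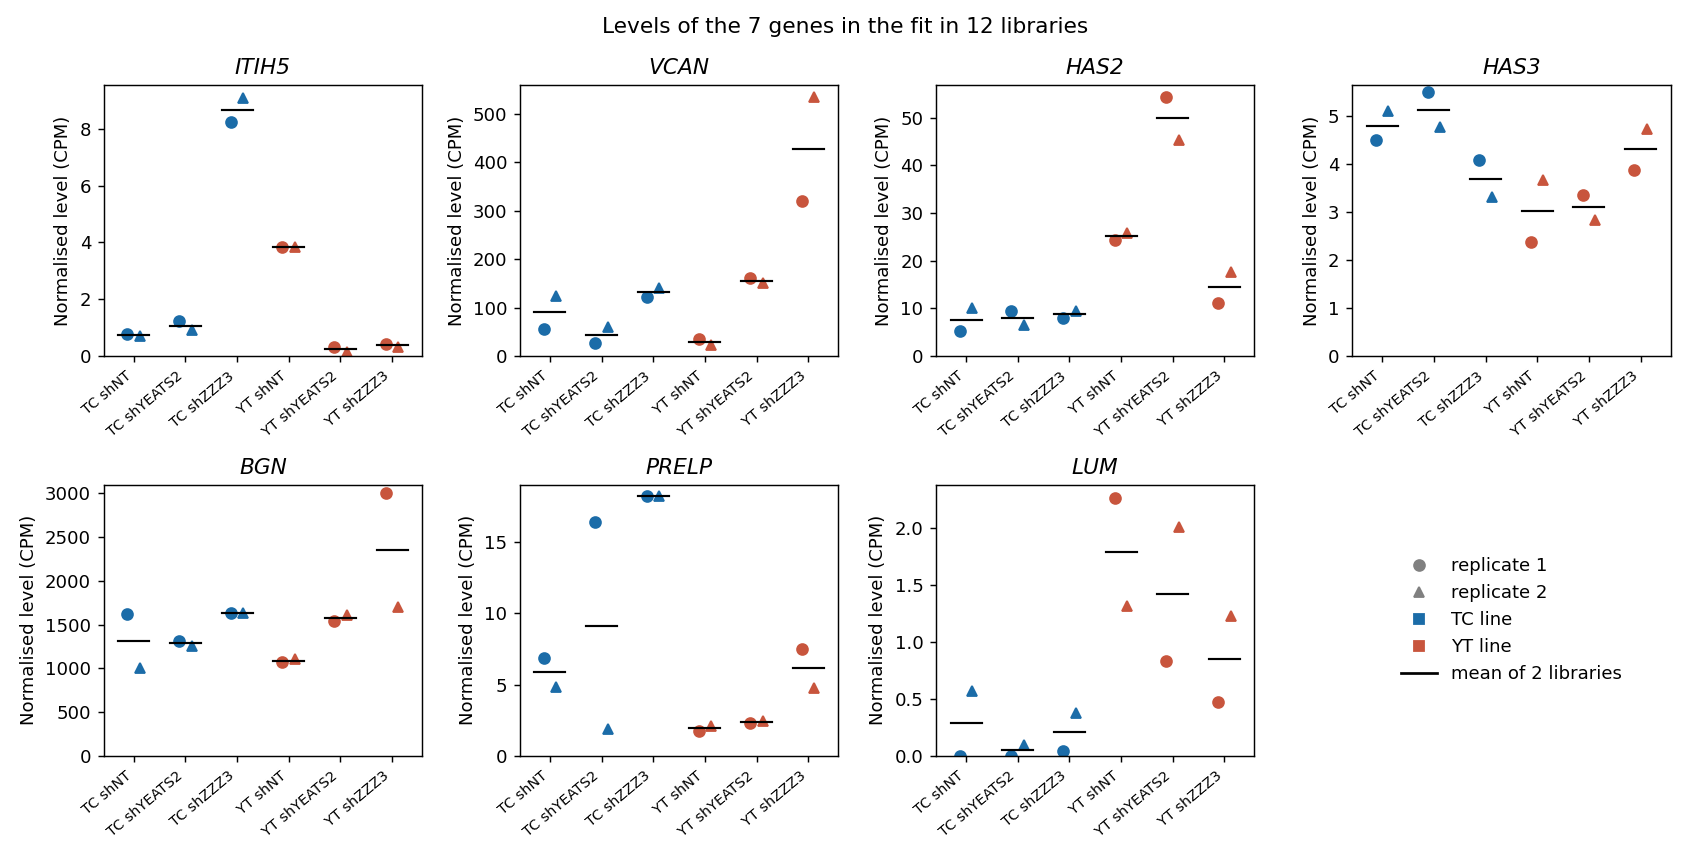
CPM of the 7 genes in the fit in each library, with circles for replicate 1, triangles for replicate 2, lines for the mean of 2 libraries, blue for TC and red for YT. ITIH5 peaks in TC shZZZ3, VCAN and BGN in YT shZZZ3 and HAS2 in YT shYEATS2, while the 2 TC shYEATS2 libraries of PRELP lie at 16.4 and 1.86 CPM.

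VCAN codes for versican, which ties hyaluronan to other matrix and cell surface proteins (ENSG00000038427, GRCh38 chromosome 5, 83471618 to 83582303, plus strand). In YT shNT it stood at 34.7 and 23 CPM, in YT shYEATS2 at 161 and 150 CPM, and in YT shZZZ3 at 320 and 534 CPM. Both knock-downs lay above both controls without overlap, and YT shZZZ3 lay above YT shYEATS2 as well. VCAN rose by 2.43 on the log2 scale in YT shYEATS2 (SE 0.443, edgeR adjusted p 0.00311) and by 3.88 in YT shZZZ3 (SE 0.47, edgeR adjusted p 8.11e-04). Both calls held without any single library, with values of 2.17 to 2.75 and 3.46 to 4.25.

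In TC the VCAN libraries overlapped. The level was 56.2 and 125 CPM in TC shNT, 27 and 60.1 CPM in TC shYEATS2, and 122 and 141 CPM in TC shZZZ3. The differences from TC shNT were -1.06 for shYEATS2 (SE 0.425, edgeR adjusted p 0.851) and 0.54 for shZZZ3 (SE 0.419, edgeR adjusted p 0.783), and neither passed. The YEATS2 effect differed between the lines by 3.48 (SE 0.612, edgeR adjusted p 0.0046), and this ranged from 2.82 without TC shNT replicate 2 to 4.20 without TC shYEATS2 replicate 2. The ZZZ3 effect differed by 3.34 (SE 0.609, edgeR adjusted p 0.0117). It was 2.71 without TC shNT replicate 2 (edgeR adjusted p 0.0139), and was no longer called without TC shZZZ3 replicate 1, TC shZZZ3 replicate 2 or YT shNT replicate 2 (edgeR adjusted p 0.0688, 0.0571 and 0.0789). Between the controls, VCAN was lower in the YT line (log2 -1.64, SE 0.433, edgeR adjusted p 0.0367), a call lost without TC shNT replicate 2, where the difference was -0.99 (edgeR adjusted p 0.106), without YT shNT replicate 1 (0.119) or replicate 2 (0.253), without either TC shZZZ3 library (0.0587) or either YT shYEATS2 library (0.0667), with library totals (0.0563) and when the 2 groups were fitted alone (0.0635).

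Of the genes around VCAN, HAPLN1, which codes for a link protein that fixes versican to hyaluronan, had 5 counts in all libraries, and the antisense gene VCAN-AS1 had 1. XRCC4, a DNA repair gene on the other side, passed in none of the 7 comparisons by edgeR. Of the 10 mesenchymal markers, 4 were called higher and 1 lower in YT shYEATS2, and 3 higher and 1 lower in YT shZZZ3. Of all genes tested, 20.7% and 10% were called in these comparisons, the shares to set beside each marker count in this paragraph. VIM rose in both (log2 1.47 and 1.37, edgeR adjusted p 0.00129 and 0.00416), while FN1 fell in YT shZZZ3 by 1.63 (edgeR adjusted p 0.00461). The summed level of the 10 markers was 12921 to 15278 CPM in YT shNT, 11872 to 14110 CPM in YT shYEATS2 and 9135 to 9640 CPM in YT shZZZ3. Of 8 endothelial markers, 3 were called higher in YT shZZZ3, PECAM1 (3.08), CDH5 (1.93) and CLDN5. CLDN5 had no counts in either YT shNT library, so the size of its difference (3.66) depends on the prior count. The summed level of the 8 endothelial markers was 251 to 293 CPM in YT shZZZ3 against 138 to 148 CPM in YT shNT. In YT shYEATS2 1 endothelial marker was higher, again CLDN5, and 1 was lower. Of 10 adipocyte markers, 6 were tested, and PLIN4 and CEBPA were called lower with both hairpins in YT, at -3.64 and -3.56 for shYEATS2 and at -2.80 and -1.54 for shZZZ3. In YT shYEATS2 1 of 5 epithelial markers was lower, and 1 leukocyte marker was higher and 1 lower. The part of these markers in the VCAN result was not tested.

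HAS2, the synthase with the higher level, stood at 24.3 and 25.9 CPM in YT shNT and at 5.26 and 10.1 CPM in TC shNT (ENSG00000170961). YT shNT was higher by 1.70 (SE 0.333, edgeR adjusted p 0.00859), without overlap. This call was lost without YT shNT replicate 1 or replicate 2 (edgeR adjusted p 0.0584 and 0.0746), at values of 1.72 and 1.63. It was 1.28 without TC shNT replicate 1 (edgeR adjusted p 0.0499) and 2.21 without TC shNT replicate 2 (edgeR adjusted p 0.00355). In YT shYEATS2 HAS2 reached 54.4 and 45.3 CPM, the highest of the 6 groups, and rose by 0.99 (SE 0.32, edgeR adjusted p 0.0486). This value lies at the threshold. It was no longer called with library totals (0.94, edgeR adjusted p 0.0964), or without either library of YT shYEATS2, YT shNT, TC shYEATS2 or TC shZZZ3 (edgeR adjusted p 0.0521 to 0.234). In YT shZZZ3 HAS2 stood at 11.2 and 17.7 CPM, below both controls, but the difference of -0.80 (SE 0.323) did not pass (edgeR adjusted p 0.152). The 3 TC groups overlapped, between 5.26 and 10.1 CPM. The effects of the hairpins on HAS2 did not pass a test of the difference between lines (0.92 for YEATS2, edgeR adjusted p 0.251, and -0.99 for ZZZ3, edgeR adjusted p 0.305), although with a correction for GC content the YEATS2 difference was 1.24 (edgeR adjusted p 0.0159).

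HAS2-AS1, the antisense gene that overlaps HAS2, had 154 counts in all and passed in none of the 7 comparisons by edgeR. SNTB1, a syntrophin and the nearest gene on one side, was higher in the YT controls by 1.73 (edgeR adjusted p 0.00424). It fell by 1.31 in YT shZZZ3 (edgeR adjusted p 0.0159) and did not pass in YT shYEATS2 (-0.38, edgeR adjusted p 0.37). In TC shZZZ3 SNTB1 lay above its controls without overlap, but this 1.08 did not pass (edgeR adjusted p 0.123). Its ZZZ3 effect differed between the lines by -2.39 (edgeR adjusted p 0.00925). ZHX2, a zinc-finger homeobox protein on the other side, was higher in YT shNT by 0.92 (edgeR adjusted p 0.022).

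HAS3 (ENSG00000103044), the synthase known for shorter chains, ranged from 2.38 to 5.5 CPM over the 12 libraries, and all neighbours in the order of its group means overlapped. It passed in none of the 7 comparisons by edgeR, and its largest difference was the ZZZ3 effect between lines, 0.86 (SE 0.394, edgeR adjusted p 0.278). The ratio of HAS2 to HAS3 per kb ran from 1.43 to 3.52 in the TC libraries, from 8.64 to 12.5 in YT shNT, from 19.6 to 19.8 in YT shYEATS2 and from 3.52 to 4.59 in YT shZZZ3. HAS3 overlaps CHTF8 on the other strand, a gene with 62283 counts against 1103 for HAS3, and how reads in the overlap were assigned is not given in the sources used here.

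BGN, the small proteoglycan with the highest level (ENSG00000182492, GRCh38 chromosome X, 153494980 to 153509546, plus strand), was at 1068 and 1111 CPM in YT shNT, 1539 and 1608 CPM in YT shYEATS2, and 2999 and 1698 CPM in YT shZZZ3. Both knock-downs were above the controls. BGN rose by 1.11 in YT shZZZ3 (SE 0.279, edgeR adjusted p 0.0285), and the 0.53 in YT shYEATS2 (SE 0.277) did not pass (edgeR adjusted p 0.196). The YT shZZZ3 value rests in good part on replicate 1 of that group. Without it the difference was 0.69 (edgeR adjusted p 0.151), and without replicate 2 it was 1.45. The call was also lost without YT shNT replicate 1 or replicate 2 (0.161 and 0.146), without TC shZZZ3 replicate 1 or replicate 2 (0.0516 and 0.0519) and when the 2 groups were fitted alone (0.0747). When YT shYEATS2 and YT shNT were fitted alone, the 0.53 had an edgeR adjusted p of 6.64e-04. BGN was called in YT shYEATS2 under 2 of the 8 alternatives other than single libraries. Over all alternatives but single libraries, this YT shYEATS2 difference ran from 0.26 to 0.55. In TC the level was 1620 and 1006 CPM in shNT, 1315 and 1255 CPM in shYEATS2 and 1638 and 1632 CPM in shZZZ3, and neither difference passed (-0.03 and 0.32, edgeR adjusted p 1 and 0.828). Replicates 1 and 2 differed in opposite directions for BGN and VCAN in both of the wide groups, with BGN higher and VCAN lower in replicate 1 of TC shNT and of YT shZZZ3. The longest transcripts of BGN and VCAN have 60.9% and 42.5% G or C. The part of GC content in these library differences was not tested. HAUS7, which overlaps BGN on the other strand, had 885 counts in all and passed in none of the 7 comparisons by edgeR.

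PRELP (ENSG00000188783, GRCh38 chromosome 1, 203475806 to 203491352, plus strand) binds basement membranes and collagen. It was at 6.87 and 4.87 CPM in TC shNT, 18.2 CPM in both TC shZZZ3 libraries, 1.74 and 2.13 CPM in YT shNT, and 7.5 and 4.78 CPM in YT shZZZ3. In both lines the shZZZ3 libraries lay above the shNT libraries. The log2 differences were 1.61 (SE 0.655) in TC and 1.63 (SE 0.713) in YT, and neither passed (edgeR adjusted p 0.376 and 0.176). The fit shares its estimate of the spread over all groups, and the 2 TC shYEATS2 libraries of PRELP were far apart, at 16.4 and 1.86 CPM. Without TC shYEATS2 replicate 1 both differences were called (1.58, edgeR adjusted p 0.012, and 1.64, edgeR adjusted p 0.00476), as they were without replicate 2 (0.0116 and 0.00463). The same held for the lower level of the YT controls, -1.56 (SE 0.715, edgeR adjusted p 0.199), which had an adjusted p of 0.00615 and 0.00593 without these libraries. The ZZZ3 effect differed by 0.01 between the lines (SE 0.957, edgeR adjusted p 0.992), a standard error too wide to show that the lines responded alike. The neighbour FMOD codes for fibromodulin, and is described with its family, and OPTC had 1 count.

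LUM (ENSG00000139329, chromosome 12, 91102629 to 91111494, minus strand) was scarce in TC, with 0 and 12 counts for shNT, 0 and 2 for shYEATS2, and 1 and 7 for shZZZ3. In YT it had 43 and 23 counts for shNT, 20 and 39 for shYEATS2, and 13 and 29 for shZZZ3. The YT shNT libraries, at 2.27 and 1.32 CPM, lay above the TC shNT libraries, at 0 and 0.573 CPM, and the log2 difference of 2.41 (SE 1.02) did not pass (edgeR adjusted p 0.121). It was 4.41 and called without TC shNT replicate 2 (edgeR adjusted p 0.0175). No hairpin comparison passed for LUM by edgeR. LUM lies in a cluster of leucine-rich proteoglycan genes with DCN and KERA, of which DCN had 8 counts and KERA 0. ASPN lies within CENPP, a centromere gene on the other strand with 3361 counts, and beside OMD, another member of the family, with 1.

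**Figure D4:**
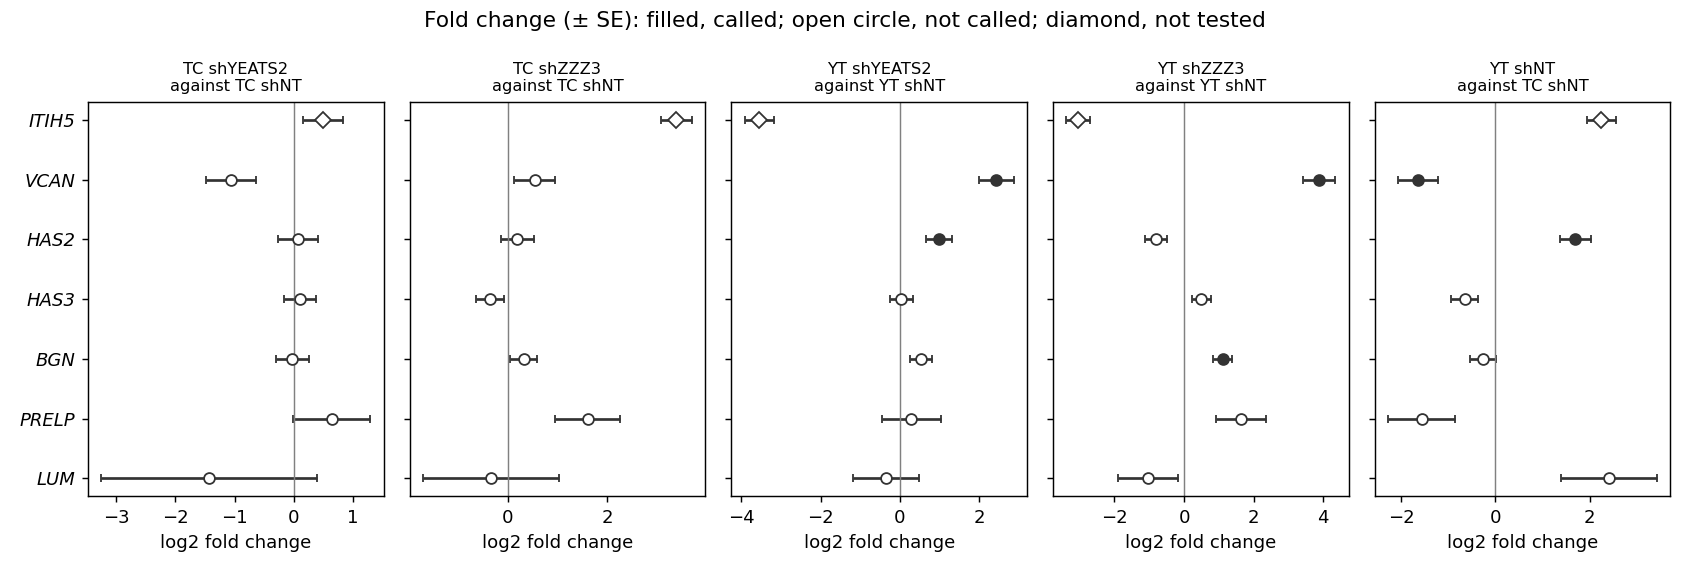
Log2 fold changes with standard errors of the 7 genes in the fit in 5 comparisons, each panel with its own axis. Filled circles were called by edgeR and open circles were not, and diamonds mark ITIH5, which was not tested, with the values by which it was chosen, 3.40 in TC shZZZ3 and -3.04 in YT shZZZ3.

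The other genes of these pathways were counted on 7 lists with 71 genes, of which 51 were tested. In TC shYEATS2 none was called by edgeR (beside 0.0434% of all genes), and in TC shZZZ3 only CD44 was (1.96%, beside 1.53% of all genes). In YT shYEATS2 17 were called, 9 higher and 8 lower (33.3%, beside 20.7% of all genes), and in YT shZZZ3 7 were, 1 higher and 6 lower (13.7%, beside 10% of all genes). Between the control lines 4 were called, 3 of them higher in YT (7.84%, beside 9.23% of all genes). The YEATS2 effect differed between the lines for 10 (19.6%, beside 9.37%) and the ZZZ3 effect for 3 (5.88%, beside 4.32%). Without TC shNT replicate 1 or replicate 2, CD44 was no longer called in TC shZZZ3, and 1 and 3 of the 4 genes were still called between the control lines. Without YT shZZZ3 replicate 1 or replicate 2, 3 of the 7 genes were still called in YT shZZZ3 in each case. All of these genes kept their direction. The list counts in YT shYEATS2 and for the YEATS2 difference between lines also fell in some fits without a single library, and rose in others. Which of the listed genes were lost there is not given here. The median log2 change over the listed genes was 0.02 in YT shYEATS2 and -0.11 in YT shZZZ3, beside -0.01 and 0.01 over all genes.

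Enzymes that make the sugar precursors of hyaluronan were all 7 tested. GFPT1, which commits fructose 6-phosphate to the hexosamine pathway, stood at 193 and 170 CPM in YT shNT against 51.3 and 73.7 CPM in TC shNT, a difference of 1.54 (SE 0.213, edgeR adjusted p 0.00129). In YT shYEATS2 it stood at 91.8 and 75.9 CPM and fell by 1.12 (SE 0.211, edgeR adjusted p 0.00374), and in YT shZZZ3 it stood at 68.9 and 80.8 CPM and fell by 1.28 (SE 0.211, edgeR adjusted p 0.00361). In TC neither hairpin passed (0.11 and 0.12, edgeR adjusted p 1 and 0.939). GFPT2, the second gene of this step, fell by 0.97 in YT shYEATS2 (edgeR adjusted p 0.0222), and its ZZZ3 effect differed between the lines by -1.58 (edgeR adjusted p 0.0325). PGM3, a later enzyme of the same pathway, fell by 1.31 in YT shYEATS2 (edgeR adjusted p 0.00667). UGDH, which makes UDP-glucuronic acid, the other sugar of the chain, rose by 1.03 (edgeR adjusted p 0.00563) from 32.2 and 31.9 to 73.2 and 57.9 CPM. The list in YT shYEATS2 thus held 1 higher and 3 lower genes of 7, beside 20.7% of all genes called, with a median of -0.29. Of the hexosamine enzymes, UAP1 (-0.19, edgeR adjusted p 0.554) and GNPNAT1 (-0.15, edgeR adjusted p 0.634) did not pass.

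CD44, the main receptor for hyaluronan on the cell surface, was at 290 and 283 CPM in TC shNT and 577 and 595 CPM in TC shZZZ3, a rise of 1.03 (SE 0.182, edgeR adjusted p 0.0164), with an adjusted p of 0.0509 and 0.0609 without TC shNT replicate 1 and replicate 2. In YT it rose from 330 and 365 CPM in shNT to 1003 and 868 CPM in shYEATS2, by 1.43 (SE 0.184, edgeR adjusted p 3.46e-04). It stood at 491 and 397 CPM in YT shZZZ3, also above both controls, but this 0.36 did not pass (edgeR adjusted p 0.256), and the hairpins were not tested against each other. The YEATS2 effect on CD44 differed between the lines by 1.5 (SE 0.257, edgeR adjusted p 0.00386), while the ZZZ3 effect did not pass such a test (-0.68, SE 0.256, edgeR adjusted p 0.188). Of the other receptors, HMMR and STAB1 were tested and passed in none of the 7 comparisons by edgeR. Among 8 tested genes of hyaluronan breakdown, HYAL1 fell by 1.12 in YT shYEATS2 (edgeR adjusted p 0.0137) and HYAL3, a sister hyaluronidase, was lower in the YT than the TC controls (-1.13, edgeR adjusted p 0.0455, and -0.77 with 0.22 without TC shNT replicate 1), and no other was called.

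Of 4 tested genes around the inter-alpha-trypsin inhibitor, ITIH6 rose in YT shYEATS2 (1.95, edgeR adjusted p 0.0019) and in YT shZZZ3 (1.40, edgeR adjusted p 0.0212), from 8 and 12 counts in YT shNT to 53 and 50 and to 46 and 36. The YT shZZZ3 call was lost without YT shZZZ3 replicate 1 (1.37, edgeR adjusted p 0.076). ITIH6, a heavy chain of the same family, thus rose in YT shYEATS2, where ITIH5 was below its controls. AMBP, which codes for the bikunin chain, fell in YT shZZZ3 by 1.66 (edgeR adjusted p 0.0453), where it had 11 and 9 counts, a call lost without YT shZZZ3 replicate 1 or replicate 2 (0.157 and 0.103). Of 4 tested hyalectans and link proteins, BCAN (brevican) fell by 4.76 in YT shYEATS2 (SE 0.864, edgeR adjusted p 0.00242), from 19.3 and 22.7 to 0.708 and 0.671 CPM, and to a lesser extent in YT shZZZ3 (log2 -2.89, SE 0.741, edgeR adjusted p 0.0289), to 2.84 and 2.66 CPM. Without YT shZZZ3 replicate 1 or replicate 2 the latter was no longer called (-2.89 and -2.85, edgeR adjusted p 0.113 and 0.0823). BCAN thus fell in both YT knock-downs in which VCAN rose. Its 2 TC shYEATS2 libraries stood at 36.7 and 3.87 CPM. HAPLN3, a link protein, rose by 1.07 in YT shYEATS2 (edgeR adjusted p 0.012).

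Among the other small leucine-rich proteoglycans 5 of 13 were tested, and 4 of these were called in YT shYEATS2, beside 20.7% of all genes. PODN (podocan) rose by 1.85 (SE 0.354, edgeR adjusted p 0.00393), from 13 and 16.2 to 50.4 and 55.1 CPM. PODNL1, its relative, rose by 1.70 (SE 0.423, edgeR adjusted p 0.0153) and FMOD by 0.85 (SE 0.216, edgeR adjusted p 0.018), and ECM2 fell by 1.51 (SE 0.454, edgeR adjusted p 0.0278). None of the 5 was called by edgeR in TC shYEATS2, TC shZZZ3 or YT shZZZ3, beside 0.0434%, 1.53% and 10% of all genes. With 5 genes, such counts do not set the family apart from all genes.

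Of 20 tested enzymes that build the chondroitin and dermatan sulphate chains carried by versican and biglycan, XYLT1, which starts the chain on the core protein, gave the clearest difference. It stood at 97.1 and 99.1 CPM in YT shNT, 17 and 17.3 CPM in YT shYEATS2, and 29.5 and 29.7 CPM in YT shZZZ3, and between 61.6 and 68.5 CPM in all 6 TC libraries. It fell by 2.51 (SE 0.165, edgeR adjusted p 9.87e-06) and by 1.73 (SE 0.16, edgeR adjusted p 2.31e-04) in the 2 YT knock-downs. CHST3, a chondroitin 6-sulphotransferase, fell by 1.41 and 1.16 in the same comparisons (edgeR adjusted p 0.00429 and 0.0204, the latter 0.0822 at -0.98 without YT shZZZ3 replicate 2), and CHST7, another enzyme of this activity, rose by 1.84 in YT shYEATS2 (edgeR adjusted p 0.00232). Over the list of 20 tested, 2 genes were higher and 2 lower in YT shYEATS2, beside 20.7% of all genes called. In YT shZZZ3 3 were lower and none higher, beside 10% of all genes. VCAN transcripts thus rose in both YT knock-downs in which XYLT1 transcripts fell, and these data hold no measure of the sugar chains themselves.

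**Figure D5:**
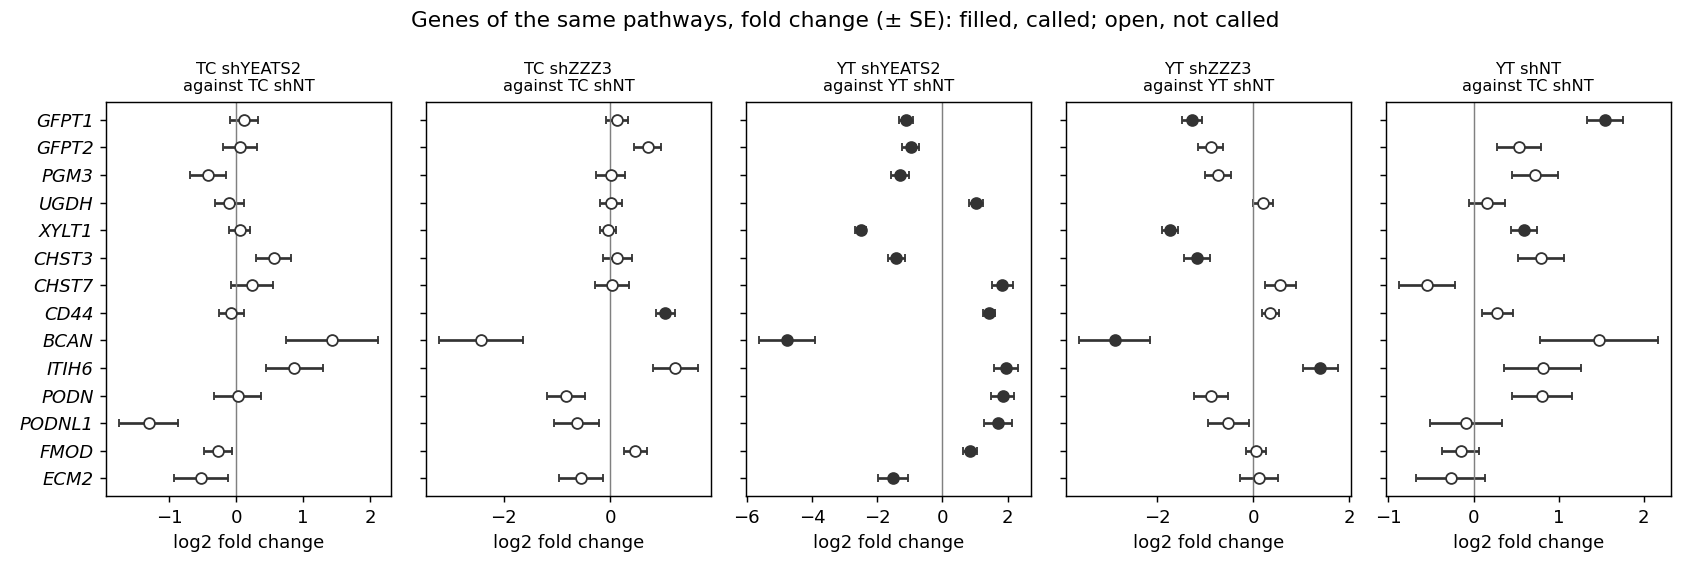
Log2 fold changes with standard errors of 14 genes of the same pathways in 5 comparisons, with filled circles where edgeR called the gene, each panel with its own axis. XYLT1 is at -2.51 in YT shYEATS2 and -1.73 in YT shZZZ3, and CD44 is at 1.03 in TC shZZZ3 and 1.43 in YT shYEATS2.

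The genes whose log2 levels followed the other tested members most closely over the 12 libraries, given as a description with Pearson r, were PHLDB2 (0.94) and FRMD4A (0.93) for VCAN, FHL3 (0.92) and GCN1 (0.919) for BGN, GLDN (0.974) and SERINC3 (0.974) for HAS2, CTCF (0.925) and FAM104B (0.878) for HAS3, POLA2 (0.978) and SCARA3 (0.965) for PRELP, and DMRTA1 (0.951) and TRHDE-AS1 (0.943) for LUM. These genes are not on the pathway lists.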

How the data were processed

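Raw gene counts, as whole numbers, were deposited by the authors for 12 libraries with no normalization. Per the study's methods, stranded poly(A) libraries were sequenced in paired ends, run through bcbio-nextgen and aligned with HISAT2 to hg38 with Ensembl annotation. Counts made from Salmon with tximport are also described, and which route gave the deposited counts, and how strand and multiply mapped reads were handled, is not given in the sources used here. The submitters' processing notes name bcl2fastq.

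Samples were grouped by their labels. The 18415 genes that averaged 5 counts or more per library were normalised by TMM and fitted with edgeR 4.0.16 (R 4.3.3; robust quasi-likelihood, all 6 groups, prior count 2 for log2 fold changes), with two-sided tests of 7 contrasts. P values were adjusted by Benjamini-Hochberg across these genes, and the threshold for a call was an adjusted p of 0.05. Values in CPM are TMM-scaled. Exon lengths and positions came from GENCODE release 44, and promoter windows from RefSeq (GRCh38.p14). The script was tested on simulated data. Alternatives were DESeq2 1.42.0, other scalings, no filter, the contrast alone, a GC correction, a replicate block and each library left out. A library with 3 counts or fewer was taken as at the limit of detection, which covers counting error only.

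The members and gene lists were chosen with earlier results of these data known. ITIH5 was planned to be tested outside the ZZZ3 comparisons, and was left out of all tests and counts after its values were seen, because each comparison uses control libraries that its choice used. Named are the 10 members, list genes called with a log2 change of at least 1 and, in pairwise comparisons, no overlap of libraries (up to 3 per list, contrast and direction), the genes most like each member, chromosomal neighbours, YEATS2, ZZZ3 and the cell type markers. HMMR, STAB1, UAP1 and GNPNAT1 fall outside this rule and were named after their values were seen. So were the values of named genes with a log2 change under 1.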

Additional observations from a re-analysis of the deposited data

Results flagged for a closer look

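The response to a hairpin differed between the TC and YT lines for VCAN and, untested, for ITIH5. Both hairpins left both ITIH5 libraries above the controls in TC and below them in YT, though only a little above for YEATS2 in TC. The differences between the lines were -4.03 for YEATS2 (SE 0.508) and -6.44 for ZZZ3 (SE 0.462). Most of the YEATS2 difference lay in YT, at -3.54 (SE 0.373), against 0.49 (SE 0.336) in TC. These ITIH5 values were not tested because the gene was chosen for its ZZZ3 values, and both hairpin effects share the control libraries. For VCAN the effect was higher in YT by 3.48 for YEATS2 and by 3.34 for ZZZ3 (edgeR adjusted p 0.0046 and 0.0117).

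Genes of the pathway lists with such a difference by edgeR were UGDH (1.14), GFPT1 (-1.22), CD44 (1.5), BCAN (-6.18), PODNL1 (3.02), PODN (1.83), FMOD (1.11), CHST7 (1.60), XYLT1 (-2.56) and CHST3 (-1.97) for the YEATS2 hairpin, 19.6% of the 51 tested beside 9.37% of all genes. For the ZZZ3 hairpin they were GFPT2 (-1.58), GFPT1 (-1.39) and XYLT1 (-1.69), 5.88% beside 4.32%. Without TC shNT replicate 1, GFPT1, FMOD, PODN and CHST7 were no longer called for YEATS2 (edgeR adjusted p 0.0518, 0.0758, 0.0774 and 0.125). For ZZZ3, GFPT2 was lost without TC shNT replicate 2 or YT shZZZ3 replicate 2 (0.0612 and 0.0848) and GFPT1 without YT shZZZ3 replicate 1 (0.0714). The BCAN value includes TC shYEATS2 libraries of 1040 and 77 counts.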

How the results depend on the processing

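With 2 libraries per group, calls near the threshold depend on single libraries, and differences of LUM, with few counts, carry wide errors. Without the filter on low counts, members called were 1 in TC shYEATS2, 1 in TC shZZZ3, 4 between the control lines and 2 for the ZZZ3 difference between lines, against 0, 0, 2 and 1. With library totals 1 was called in YT shYEATS2 and 1 between the control lines, against 2 in each, and with the GC correction, alone or with the block, 2 were called for the YEATS2 difference, against 1. Over all alternatives but single libraries, members called reached 3 in YT shYEATS2 and 3 in YT shZZZ3, against 2 in each. Leaving out each library in turn gave 0 to 1 in TC shZZZ3 and for the ZZZ3 difference, 0 to 3 between the control lines, 1 to 3 in YT shZZZ3, 1 to 2 in YT shYEATS2 and for the YEATS2 difference, and 0 in TC shYEATS2. No called difference of a member changed sign under any of these alternatives. The ITIH5 differences for ZZZ3 ranged over all alternatives from 3.33 to 3.55 in TC and from -3.3 to -2.91 in YT. The ITIH5 difference in YT shYEATS2 was -3.92 by DESeq2 and -4.00 to -3.22 with single libraries left out.

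The labels give no shared origin to libraries of the same replicate number. Over 15 pairs of groups the deviations of same-numbered libraries correlated at -0.438 to 0.898, with 7 over 0.1, among them the 3 pairs of TC groups (0.18 to 0.428). The highest, 0.898, was between TC shNT and YT shZZZ3, the 2 groups whose libraries stood furthest apart, so their replicates differed in much the same genes. The lowest, -0.438, was between TC shNT and YT shNT. The cause of these correlations was not tested, and the numbers were not taken as pairs over the whole series. With the replicate number as a block, the counts of members called were 0, 0, 2, 2 and 3 in the 5 comparisons and 1 and 1 for the differences between lines. The added call was LUM between the control lines (2.64, edgeR adjusted p 0.0398), and the replicate block alone changed no other call of a member. With the block and the GC correction together, HAS2 was also called in YT shZZZ3 (-0.65, edgeR adjusted p 0.0454) and for the YEATS2 difference between lines (1.24, edgeR adjusted p 0.0146). All genes called rose from 8 to 28 in TC shYEATS2.

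Counts over all genes moved more. Over all alternatives but single libraries they ran from 4 to 213 in TC shYEATS2 (8 in the analysis as reported), 157 to 967 in TC shZZZ3 (281), 3855 to 8719 in YT shYEATS2 (3821), 1394 to 4540 in YT shZZZ3 (1846), 941 to 4122 between the control lines (1699), and 1502 to 4336 and 758 to 2540 for the differences between lines (1725 and 795). Pathway list genes called ran from 0 to 2, 1 to 2, 18 to 30, 5 to 18, 2 to 17, 8 to 17 and 1 to 10 in the same order. With single libraries left out, the list counts of YT shYEATS2 and of the YEATS2 difference fell below these ranges in some fits. The causes were not tested.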
